A study of Mus musculus with 8 samples.

Results

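Cytochromes P450 of families 1 to 4 are the liver's main enzymes for oxidising drugs, pollutants, steroids and fatty acids. They were taken from the deposited gene table as every protein-coding row whose symbol is Cyp, a family number from 1 to 4, a letter and a number, which gave 66 of 27110 genes. Of these, 3 belong to family 1, 42 to family 2, 7 to family 3 and 14 to family 4. A total of 59 members had enough reads to be tested. The other 7 (Cyp2c65, Cyp2c66, Cyp2d34, Cyp2j8, Cyp2j13, Cyp3a57 and Cyp4x1) had between 4 and 82 reads in all 8 libraries together and are named only to account for them.

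The study asked how mouse livers lacking Pkd1l1, a polycystin-family membrane protein gene, differ from livers that keep it. Total RNA was sequenced from 4 LKO livers, in which Pkd1l1 was deleted in the liver only, and from 4 Fl/Fl control livers. All 8 were labelled NT for treatment and week 7 for time. LKO libraries 3, 4, 12 and 13 and Fl/Fl libraries 5, 7 and 9 came from females, and Fl/Fl library 10 from a male. The driver that deleted Pkd1l1 is not named in the sources, and the labels name hepatocytes and cholangiocytes as the cell types of the tissue. Nothing in the labels ties a library to a litter or a day of preparation. The p-values therefore describe variation among these 8 libraries, some of which may be technical.

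A P450 enzyme sits in the membrane of the endoplasmic reticulum, binds oxygen at a heme iron and receives electrons from the reductase Por. Family 1 genes answer to the aryl hydrocarbon receptor Ahr, Cyp2b genes to the receptor Nr1i3 (CAR), Cyp3a genes to Nr1i2 (PXR) and Cyp4a genes to Ppara. Many Cyp2 and Cyp3a genes differ between male and female mouse liver through the pulse pattern of growth hormone, and many lie in clusters of related genes.

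By distance alone, counted as runs of neighbours less than 1 Mb apart, 58 of the 66 members lay in 8 clusters. How alike the members are was counted separately, as the share of a transcript's 50-base windows that also occur in another gene. It was 50% or more for 3 members and 0 for 10. The widest cluster covered 1356 kb of chromosome 7 (25802475 to 27158668, mm10) and held 11 members of the Cyp2s, Cyp2b, Cyp2a, Cyp2g, Cyp2f and Cyp2t subfamilies, and a run of 14 Cyp2c genes covered 1180 kb of chromosome 19. The chromosome 7 cluster held the member with the smallest p for genotype, Cyp2b10, and the member whose control libraries differed most, Cyp2a22. RefSeq promoter sequence (GRCm38.p6) was found for 54 of the 66 members. For these genes and other Cyp2b and Cyp2a genes of the cluster, the stretch from 200 to 41 bases before the start site is shown. Each is 160 bases, read 5′ to 3′ along the gene's strand. Cyp2a12, the gene that shares most windows with Cyp2a22, is not shown. Capitals mark matches to TTGCNNAA, letters of the type bound by C/EBP factors, searched on both strands. The stretches are chr7:25897458-25897617 (plus strand) for Cyp2b10, chr7:26173209-26173368 (plus) for Cyp2b9 and chr7:26061295-26061454 (plus) for Cyp2b13. They are chr7:26939427-26939586 (minus) for Cyp2a22, chr7:26306992-26307151 (plus) for Cyp2a4 and chr7:26835139-26835298 (plus) for Cyp2a5.
Cyp2b10: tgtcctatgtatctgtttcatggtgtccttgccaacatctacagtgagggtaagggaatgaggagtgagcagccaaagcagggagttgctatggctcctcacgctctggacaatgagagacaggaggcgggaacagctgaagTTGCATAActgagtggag
Cyp2b9: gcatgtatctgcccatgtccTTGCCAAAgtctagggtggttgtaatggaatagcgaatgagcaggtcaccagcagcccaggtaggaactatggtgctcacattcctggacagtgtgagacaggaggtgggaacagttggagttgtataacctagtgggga
Cyp2b13: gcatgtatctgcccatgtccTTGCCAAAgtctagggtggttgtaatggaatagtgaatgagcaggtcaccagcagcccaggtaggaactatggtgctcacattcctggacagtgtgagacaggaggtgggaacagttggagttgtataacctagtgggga
Cyp2a22: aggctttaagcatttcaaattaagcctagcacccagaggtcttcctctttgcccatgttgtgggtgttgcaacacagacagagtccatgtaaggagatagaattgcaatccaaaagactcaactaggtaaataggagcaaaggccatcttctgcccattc
Cyp2a4: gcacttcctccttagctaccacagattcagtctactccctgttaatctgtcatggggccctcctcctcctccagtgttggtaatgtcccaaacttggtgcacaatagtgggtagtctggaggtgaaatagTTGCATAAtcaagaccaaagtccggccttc
Cyp2a5: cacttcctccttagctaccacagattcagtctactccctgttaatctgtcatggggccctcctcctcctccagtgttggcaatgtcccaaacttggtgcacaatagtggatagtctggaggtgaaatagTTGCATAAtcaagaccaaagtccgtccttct

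Over the 250 bases before the start, Cyp2b9 and Cyp2b13 were 99.2% identical, and Cyp2b10 was 70% identical to each. Cyp2b10 holds TTGCATAA from position -58. Cyp2b9 and Cyp2b13 hold TTGTATAA at the matching place, which is C4T when positions are counted from 1 at the first base of the Cyp2b10 match, and their own match lies at -180. Cyp2a4 and Cyp2a5 were 97.6% identical and share a TTGCATAA match. Cyp2a22 has no match in this window and was 51.5% identical to Cyp2a4, close to the 51.1% between Cyp2b13 and Cyp2a4. TTGCNNAA was present in 12 of the 54 members (22.2%) and in 9.56% of 32851 promoters of the same length. TATAAA was present in 24 members (44.4%, 12.4% of all promoters) and AGGTCA, the core letters bound by nuclear receptors, in 13 (24.1%, 14.0%). GCGTG, the core read by Ahr, was present in 10 members (18.5%, 28.2% of all) and TTCNNNGAA, the STAT5 letters, in 2 (3.70%, 7.02%). A member counted if any of its promoters matched, whereas the share of all is over single promoters, so the 2 are not fully alike. Near-identical members such as Cyp2b9 and Cyp2b13 were each counted. These are matches of letters and not measured sites.

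The 8 libraries held between 71491723 and 76622375 reads, and 3 reads in a library were worth 0.0385 to 0.0428 CPM (reads per 1000000, scaled by TMM), a floor that covers counting error only. Pkd1l1 itself had 0 to 2 reads per library, so its level says nothing about the labels. Hepatocyte markers (9 of 10 listed in the table) summed to 129062 to 142588 CPM in LKO and 134199 to 148691 CPM in female Fl/Fl libraries. The summed levels of cholangiocyte, Kupffer cell, stellate cell and sinusoidal endothelial markers (10 genes each) also overlapped between genotypes. The 10 T, NK or B cell markers summed to 15.6 to 20.8 CPM in LKO and 21.5 to 24.6 CPM in female Fl/Fl livers. No gene on these 6 lists was at 0 in all libraries, none passed the test, and their part in the P450 values was not tested. In whole tissue, fewer cells of a type and less RNA per cell cannot be told apart.

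P450 reads made up 2.77% to 3.11% of all reads in LKO livers, 2.60% to 3.34% in female Fl/Fl livers and 2.47% in the male. Within that pool, levels between genes are compared as FPKM, which the authors made per gene length. Family 2 held 76.8% of the summed P450 FPKM of the 7 female libraries, family 3 held 11.4%, family 4 held 8.25% and family 1 held 3.59%. By subfamily, Cyp2c led with 27.0%, followed by Cyp2e with 24.1%, Cyp3a with 11.4%, Cyp2d with 8.92% and Cyp2a with 7.10%.

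Cyp2e1, which oxidises ethanol and acetaminophen, was the most abundant member. Its FPKM was 3335, 3328 and 2773 in Fl/Fl females 5, 7 and 9, 3038 in the male, and 2711, 2843, 2927 and 3588 in LKO 3, 4, 12 and 13. The genotypes overlapped fully. Cyp3a11, the main PXR-responsive CYP3A of mouse liver, had 1155, 1226 and 779 FPKM in the Fl/Fl females, 877 in the male and 816, 911, 1023 and 931 in LKO livers, so Fl/Fl 9 lay below every LKO library and Fl/Fl 5 and 7 above. The next in order were Cyp2c29 with 712 ± 105 FPKM (SD, n = 7 female libraries), Cyp2d26 with 560 ± 31.9, Cyp1a2 with 457 ± 76.2, Cyp2f2 with 428 ± 51.5, Cyp2d10 with 448 ± 25.2 and Cyp2c37 with 490 ± 72.8, ranked by the mean over all 8 libraries. From Cyp2d26 downwards the spans of mean ± SD of neighbours in this order overlapped.

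**Figure D1:**
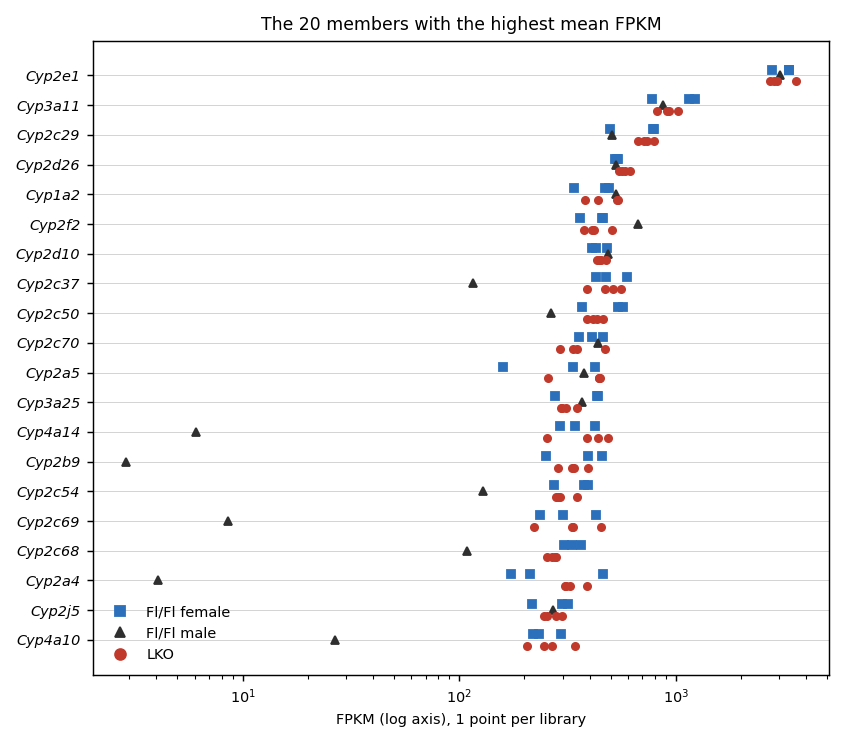
FPKM (log axis) of the 20 members with the highest mean, 1 point per library: blue squares are female Fl/Fl, black triangles the male Fl/Fl and red circles LKO. Cyp2e1 stands above all others near 3072 FPKM, female points of both genotypes overlap in nearly every row, and the male triangle lies far to the left for Cyp2b9, Cyp2a4, Cyp4a14 and Cyp2c69.

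No member passed the genotype test. With edgeR's quasi-likelihood test, 0 of 59 members reached an adjusted p of 0.05 in either direction, where 1.41% of all 16420 tested genes did (1.02% higher and 0.396% lower in LKO). At an unadjusted p under 0.05 there were 2 members higher and 2 lower, against 9.22% and 6.86% of all genes (16.1% together). DESeq2 called 1 member higher and 2 lower (4.02% and 2.22% of all genes), limma voom 0 (0.944% and 0.359%) and limma trend on log2(FPKM + 1) 0 (0.639% and 0.213%). Fitted differences were positive in 31 members and negative in 28, with a median of 0.01 on the log2 scale beside 0.00 over all genes tested, and 49 of the 59 lay within 0.5 of 0. Standard errors ranged from 0.08 to 1.55 with a median of 0.19, so differences of the size of the median error could not be resolved.

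The groups of LKO and female Fl/Fl values did not overlap for 8 members (13.6%), 6 higher and 2 lower, where 15.1% of all tested genes did not (8.85% higher, 6.22% lower). The 6 higher members were Cyp1a1, Cyp2a22, Cyp2b10, Cyp2d22, Cyp2d26 and Cyp4f13, and the 2 lower ones were Cyp2c68 and Cyp2d9. The share is close to that of all genes.

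**Figure D2:**
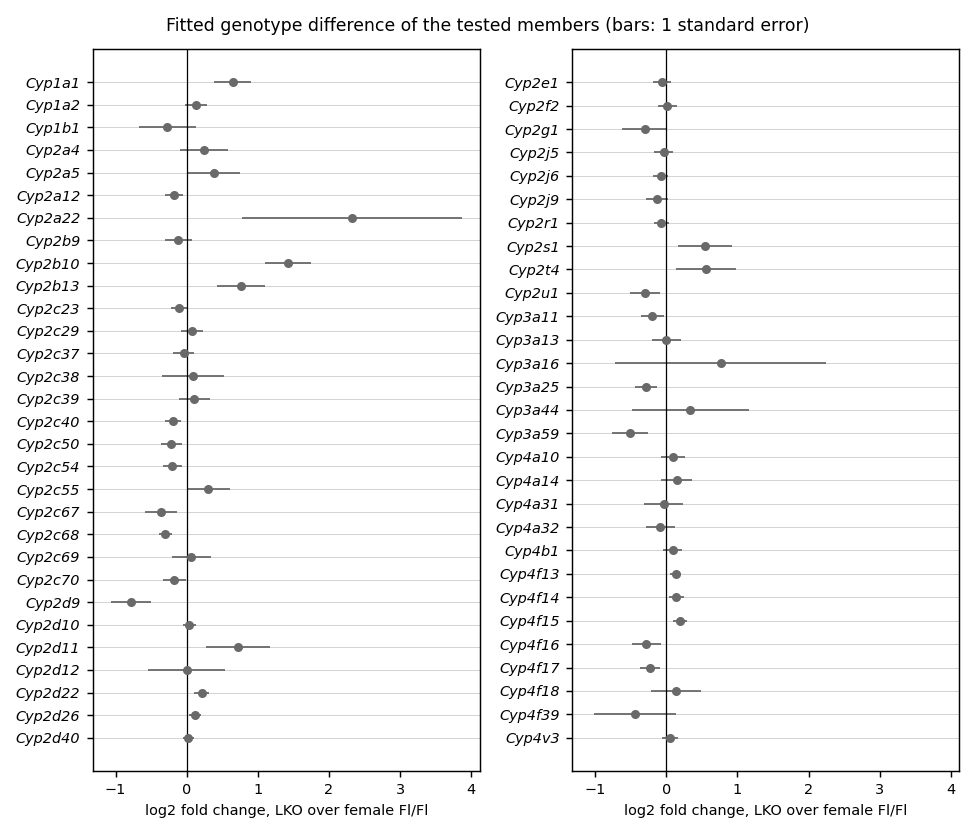
Fitted log2 fold change of LKO over female Fl/Fl for the 59 tested members, with bars of 1 standard error and a line at 0. Cyp2a22 (2.33) and Cyp2b10 (1.42) lie farthest to the right, Cyp2d9 (-0.78) farthest to the left, and the longest bars are those of Cyp2a22, Cyp3a16 and Cyp3a44.

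Cyp2b10, the classic phenobarbital-responsive target of CAR (chromosome 7, 25897620 to 25926624), had the smallest p of the members. Its level was 78.4, 74.6 and 50.7 CPM in Fl/Fl females 5, 7 and 9, 17.7 CPM in the male and 158, 288, 125 and 156 CPM in LKO 3, 4, 12 and 13. All 4 LKO values lay above all Fl/Fl values, and LKO 4 stood highest. The fitted difference was 1.42 ± 0.32 on the log2 scale, or 2.67-fold, with an adjusted p of 0.104 by edgeR's quasi-likelihood test, which did not pass. Without LKO 4 the difference was smaller and its spread narrower (log2 1.11, adjusted p = 0.0470), which passed (0.214% of all genes did in that direction), and DESeq2 gave 1.42 with an adjusted p of 4.49e-06. Over all 17 alternatives the difference ranged from 1.11 to 1.83 and the adjusted p from 4.49e-06 to 0.515. In the authors' deposited table, Cyp2b10 was the 1 member of 66 past an adjusted p of 0.05 (log2 1.71, adjusted p = 0.0405), where 0.258% of its 27110 genes were past it in that direction. That comparison counts the male (17.7 CPM) as an ordinary control, so it is not the contrast between females. The edgeR fit without a sex term also gave a log2 difference of 1.71 (adjusted p = 0.515).

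The neighbours of Cyp2b10 on chromosome 7 are both known as female-type genes. Cyp2b13 had 138, 62.3 and 117 CPM in the Fl/Fl females and 130, 246, 193 and 148 CPM in LKO livers, which overlap (log2 0.76 ± 0.33, adjusted p = 0.333). Cyp2b9 had 823, 713 and 452 CPM in the Fl/Fl females and 598, 710, 521 and 613 CPM in LKO livers, with every LKO value inside the control range (log2 -0.12 ± 0.19, adjusted p = 0.818). Whether the genotype difference of Cyp2b10 differs from that of its neighbours was not tested. The sum over the 3 Cyp2b genes was 836 ± 210 CPM in female Fl/Fl livers (SD, n = 3) and 971 ± 185 CPM in LKO livers (n = 4), which overlapped; Cyp2b9 supplied most of its reads.

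Among the lower members, Cyp2c68 had 552, 606 and 506 CPM in the Fl/Fl females, 179 CPM in the male and 461, 444, 427 and 465 CPM in LKO livers. The LKO values were tightly grouped below the female controls, and the difference was -0.30 ± 0.09 on the log2 scale (adjusted p = 0.136 by edgeR). It passed with DESeq2 (adjusted p = 0.0400) and without Fl/Fl 9 (log2 -0.37, adjusted p = 0.0401). A total of 43.3% of the 50-base windows of its transcript also occur in another gene, mostly Cyp2c40, so how reads were split between these copies could move its value.

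Cyp2d9, a steroid hydroxylase known from male liver, had 105, 149 and 119 CPM in the Fl/Fl females and 60.2, 42.5, 93.5 and 92.4 CPM in LKO livers. The male library held 1549 CPM, above every female value. Between females the difference was -0.78 ± 0.29 (adjusted p = 0.251), and it passed with DESeq2 (adjusted p = 0.0256). Without the sex term the fitted difference was -2.73, since the male library then counts as an ordinary control.

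Cyp1a1, the most Ahr-responsive P450 gene, was low, at 1.11, 1.18 and 1.06 CPM in the Fl/Fl females, 2.45 CPM in the male and 1.65, 2.46, 1.62 and 1.26 CPM in LKO livers (log2 0.65 ± 0.26, adjusted p = 0.250). LKO values lay above the female controls, and the male value was as high as the highest of them. Its neighbour Cyp1a2, the constitutive liver form, had 842 ± 162 CPM in female Fl/Fl and 921 ± 152 CPM in LKO livers (log2 0.13 ± 0.16, adjusted p = 0.753). Cyp1b1, known mainly outside the liver, stayed between 0.473 and 1.22 CPM in all female libraries.

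**Figure D3:**
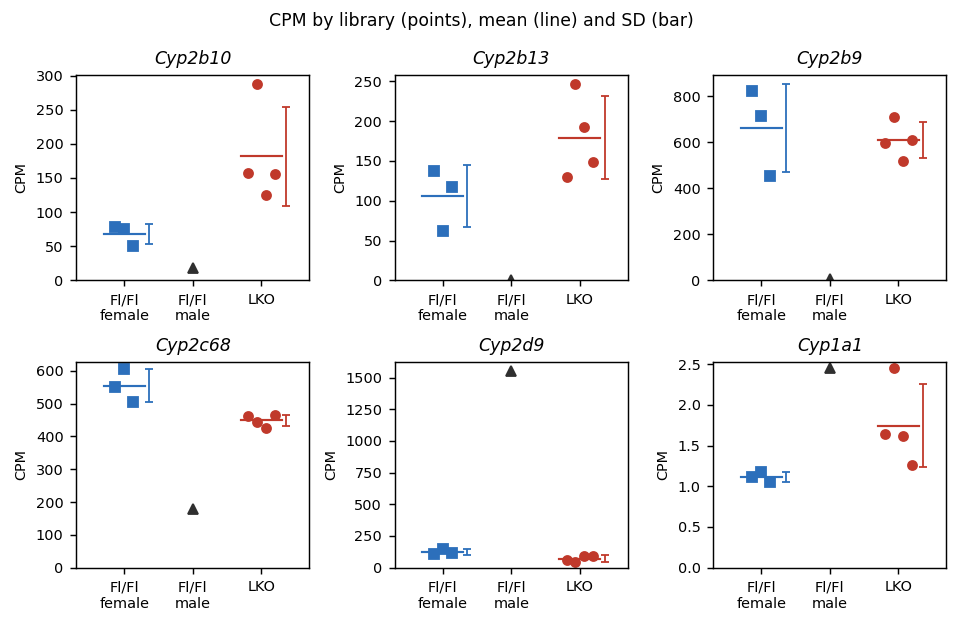
CPM by library for 6 members, with the mean as a line and 1 SD as a bar for the female groups; every axis starts at 0. The 4 LKO points of Cyp2b10 (125 to 288) lie above the female Fl/Fl points (50.7 to 78.4), those of Cyp2b9 lie within them, and the male point lies near 0 for Cyp2b9 and Cyp2b13 and at 1549 for Cyp2d9.

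Of the other members named by p, Cyp2d11 had 0.72 ± 0.45 on the log2 scale (adjusted p = 0.477) at 0.649 to 2.58 CPM in the female libraries, Cyp2d22 0.21 ± 0.11 (0.358), Cyp4f15 0.20 ± 0.10 (0.375) and Cyp4f13 0.13 ± 0.08 (0.428). Negative differences were those of Cyp3a59 with -0.52 ± 0.25 (0.374), Cyp3a25 with -0.29 ± 0.16 (0.391), Cyp2c40 with -0.19 ± 0.11 (0.434), Cyp4f17 with -0.23 ± 0.14 (0.461), Cyp2c67 with -0.37 ± 0.22 (0.472) and Cyp2c54 with -0.21 ± 0.13 (0.495). Each adjusted p is from edgeR, and none passed. Cyp2c67 and Cyp2c40 share 52.8% and 72.1% of their windows with other genes and are uncertain for that reason.

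The remaining members named here are given by what they are known to do, and none passed the test. Cyp2c70, which makes the rodent muricholic acids, had 779 ± 102 CPM in female Fl/Fl and 691 ± 145 in LKO livers (log2 -0.17 ± 0.16, adjusted p = 0.639). Cyp2r1, a vitamin D hydroxylase, had 15.2 ± 1.52 and 14.5 ± 0.648 CPM (log2 -0.07 ± 0.10). Cyp4a14, a Ppara-responsive fatty acid hydroxylase, had 884 ± 173 and 980 ± 248 CPM (log2 0.15 ± 0.22), and Cyp2j5, an arachidonic acid epoxygenase, had 626 ± 123 and 609 ± 54.8 CPM (log2 -0.04 ± 0.14). Cyp4f14 had 409 ± 60.6 and 451 ± 20.9 CPM (log2 0.14 ± 0.11), and Cyp2f2, which activates naphthalene, 831 ± 116 and 839 ± 112 CPM (log2 0.01 ± 0.13). Cyp4v3, a fatty acid hydroxylase, had 342 ± 22.4 and 353 ± 45.4 CPM, and Cyp4b1 15.6 ± 2.82 and 16.6 ± 1.34 CPM. Cyp2s1, Cyp2t4 and Cyp2g1 were low, with group means of 0.376 to 6.98 CPM.

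Summed by family and by subfamily, the genotypes overlapped in every case. Family 2 summed to 20620 ± 2336 CPM in female Fl/Fl livers (SD, n = 3) and 20328 ± 1231 in LKO livers (n = 4), family 3 to 6268 ± 1435 and 5455 ± 451, family 4 to 2439 ± 286 and 2647 ± 320, and family 1 to 844 ± 162 and 923 ± 153. The Cyp2c sum was 7764 ± 1006 and 7302 ± 533 CPM, the Cyp2d sum 2022 ± 105 and 2101 ± 70.2, and the Cyp2a sum 1892 ± 200 and 2125 ± 286. The Cyp4a sum was 1432 ± 253 and 1560 ± 353, and the Cyp4f sum 649 ± 74.2 and 718 ± 38.2. Sums depend less than single members on how reads were divided between copies, and sums over chosen genes carry no p.

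Spread within the groups was compared with that of all genes. The median coefficient of variation was 19.5% over the 3 female Fl/Fl libraries and 16.3% over the 4 LKO libraries, beside 14.2% and 14.2% for all tested genes. Fl/Fl 9 was the lowest of the 7 female libraries in 26 of 59 members (44.1%), where it was lowest in 17.1% of all tested genes. It was the highest in 8 members (16.6% of all genes). Among the other 6 female libraries, the count of members at the lowest place ranged from 1 to 11, where each was lowest in 11.6% to 15.4% of all genes.

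The female controls spread widely in 3 members of the Cyp2a and Cyp3a subfamilies, which were named after their values were seen. Cyp2a22 (chromosome 7, 26931631 to 26939384) had 0.654 and 0.808 CPM in Fl/Fl 5 and 7 and 39.9 CPM in Fl/Fl 9, a 61.0-fold range, against 0.556 CPM in the male and 41.9, 77.1, 80.4 and 77.2 CPM in LKO livers. Fl/Fl 9 was thus near the LKO values, and the other Fl/Fl females near the male. Cyp3a44 had 8.86, 10.8 and 72.8 CPM in Fl/Fl 5, 7 and 9, 0.941 in the male and 35.4, 37.4, 51.0 and 32.1 in LKO livers, with all LKO values between the extremes of the controls. Cyp3a16 had 0.494, 0.718 and 11.7 CPM, 0.699 in the male and 3.57, 15.1, 9.90 and 0.710 in LKO livers, so that LKO 13 sat with the low controls. A range of at least 4-fold between the female Fl/Fl libraries was seen in 4 tested members (5.12% of all genes), and between LKO libraries in 1, Cyp3a16 (5.3% of all genes).

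Cyp2a4, a steroid hydroxylase predominant in female liver, followed the same order more mildly, with 289, 357 and 770 CPM in Fl/Fl 5, 7 and 9, 6.82 in the male and 516, 543, 655 and 518 in LKO livers. Its near-identical neighbour Cyp2a5, the mouse coumarin hydroxylase, ran the other way among the controls, with 667, 851 and 316 CPM, 749 in the male and 510, 888, 900 and 885 in LKO livers. The transcript of Cyp2a4 shares 36.1% of its 50-base windows with Cyp2a5, so how reads were split between this pair is uncertain. Cyp2a22 shares 25.7% of its windows, all with Cyp2a12, another gene of the cluster. The Cyp2a sum was 1804, 2120 and 1751 CPM in Fl/Fl 5, 7 and 9.

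With all libraries, edgeR's adjusted p was 0.543 for Cyp2a22 (log2 2.33 ± 1.55), 0.893 for Cyp3a44 (0.34 ± 0.82), 0.860 for Cyp3a16 (0.76 ± 1.48) and 0.789 for Cyp2a4 (0.24 ± 0.34). Without Fl/Fl 9, 3 members passed as higher in LKO (2.84% of all genes): Cyp2a22 with 6.56 on the log2 scale (adjusted p = 0.00193), Cyp3a44 with 1.98 (0.00194) and Cyp2a4 with 0.78 (0.00844). Cyp2a22 and Cyp3a44 were named because Fl/Fl 9 stood apart, so their calls here restate that spread and are no support for a genotype difference. Another 4 passed as lower (1.5% of all genes): Cyp3a59 with -0.79 (0.00801), Cyp3a25 with -0.49 (0.0172), Cyp2c50 with -0.40 (0.0378) and Cyp2c68 with -0.37 (0.0401). Fl/Fl 9 lay apart from Fl/Fl 5 and 7 in Cyp2a4 (770 against 289 and 357 CPM) and Cyp3a59 (65.3 against 128 and 136). It did so too in Cyp3a25 (550 against 882 and 875) and Cyp2c50 (1028 against 1613 and 1531). In Cyp2c68 it was the lowest control (506 against 552 and 606). Leaving Fl/Fl 9 out removes that spread, so these calls are no support for a genotype difference either. Without Fl/Fl 5 and 7 the female control arm is the single library Fl/Fl 9, which is assumed to vary like the LKO libraries. The differences of Cyp3a44 and Cyp2a4 were then -0.91 and -0.47, which restates that Fl/Fl 9 is high in both genes. None of the members passed in that fit, in which few genes passed at all (0.0464% of all genes as higher and 0.104% as lower).

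Fl/Fl 5 and 7 also stood apart in Dbp, a clock-driven PAR bZIP factor that was named after its values were seen. Dbp had 2.46 and 3.50 CPM in Fl/Fl 5 and 7, 26.9 in Fl/Fl 9, 46.1 in the male and 0.606, 1.64, 54.4 and 42.2 in LKO 3, 4, 12 and 13. LKO 3 and 4 were thus as low in Dbp as Fl/Fl 5 and 7, while their Cyp2a22 values (41.9 and 77.1 CPM) lay far above those of Fl/Fl 5 and 7 (0.654 and 0.808 CPM). Cyp2a22 in LKO 12 and 13, with high Dbp, was 80.4 and 77.2 CPM. Arntl, a clock gene also looked at after its values were seen, ran opposite to Dbp. It had 39.7 and 29.5 CPM in Fl/Fl 5 and 7 and 30.3 and 26.6 in LKO 3 and 4. In Fl/Fl 9, the male, LKO 12 and LKO 13 it had 8.52, 3.98, 5.32 and 8.31. Ciart did not divide the libraries this way. Fl/Fl 9 was the only female control with high Dbp and low Arntl, so the fit without it holds none. The part of time of day in the P450 values was not tested.

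**Figure D4:**
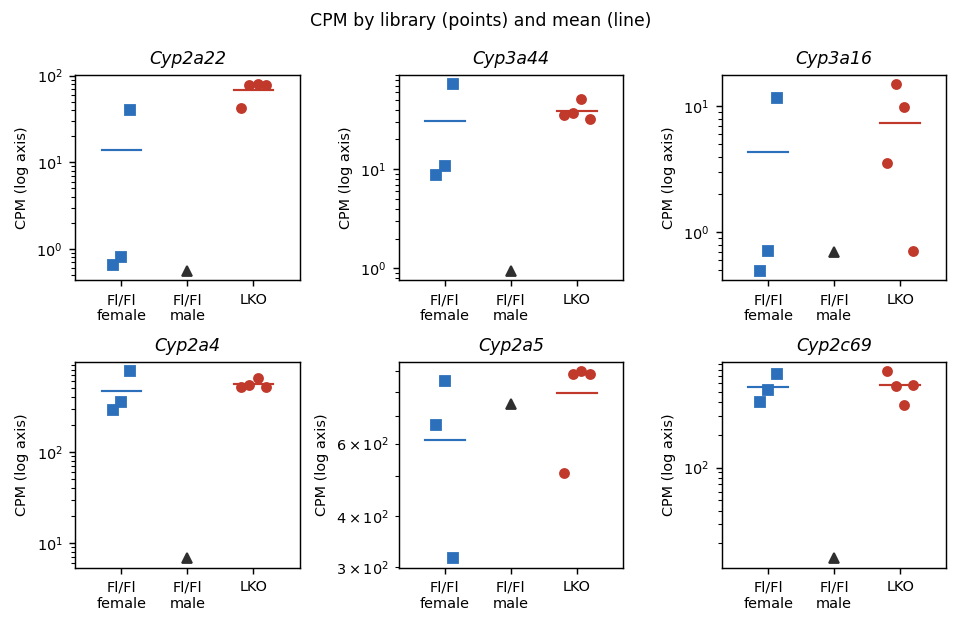
CPM by library (log axis, limits differ between panels) for 6 members, with the mean of each female group as a line; points of a group stand in the order of their library number. Fl/Fl 9, the rightmost blue square, lies far above Fl/Fl 5 and 7 for Cyp2a22 (39.9 against 0.654 and 0.808), Cyp3a44 and Cyp3a16, above them by less for Cyp2a4 and Cyp2c69 (726 against 402 and 517), and below them for Cyp2a5.

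Sex was represented by 1 male library, which allows no test. It lay above all 7 female libraries in 10 tested members (20.8% of all genes) and below all of them in 23 (20.3% of all genes). Against the mean of the female Fl/Fl libraries it was at least 4-fold higher in 1 member, Cyp2d9 (0.804% of all genes), and at least 4-fold lower in 13 (2.98% of all genes). These counts leave out genes whose symbols fall outside the rule. Of those, Cyp4a12a and Cyp4a12b were 370-fold and 325-fold above the female Fl/Fl mean in the male. Cyp3a41a and Cyp3a41b were 23.7-fold and 17.0-fold below it, a mean that Fl/Fl 9 raised. Cyp2b9 was 127-fold lower in the male (5.23 against 663 ± 190 CPM), Cyp2b13 97.7-fold, Cyp2a4 69.3-fold, Cyp4a14 58.0-fold (15.2 against 884 ± 173 CPM) and Cyp2c69 37.7-fold. The 3 genes with split controls are among these 13: Cyp3a44 was 32.7-fold lower than the female mean, Cyp2a22 24.8-fold and Cyp3a16 6.16-fold. Their female mean is set largely by Fl/Fl 9. The male value of Cyp3a16 (0.699 CPM) lay between those of Fl/Fl 5 and 7 (0.494 and 0.718). That of Cyp2a22 (0.556) was close to theirs (0.654 and 0.808), and that of Cyp3a44 (0.941) was below theirs (8.86 and 10.8).

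On the male side, Cyp2d9 was 12.5-fold above the mean of the female Fl/Fl libraries, Cyp2u1, a fatty acid hydroxylase, 3.74-fold (21.8 against 5.83 ± 0.368 CPM), Cyp2d11 2.37-fold, Cyp1a1 2.20-fold and Cyp2d40 1.97-fold. The Cyp2b sum was 24.0 CPM in the male and 836 ± 210 in Fl/Fl females, the Cyp4a sum 99.1 and 1432 ± 253, and the Cyp2c sum 4264 and 7764 ± 1006. The Cyp4a sum leaves out Cyp4a12a and Cyp4a12b, whose symbols fall outside the rule. They had 400 and 98.7 CPM in the male, so the sum understates the male level of the whole subfamily. The Cyp2d sum was higher in the male, 3586 against 2022 ± 105 CPM. Cyp2e1, at 6291 CPM in the male, lay inside the female range. In the list of 8 P450 genes known as female-biased, 0 passed for genotype with edgeR (1.41% of all genes did) and 0 reached an unadjusted p of 0.05 (16.1% of all genes). In a list of 8 a count of 0 is near both shares. The summed level of this list was 2752 to 3691 CPM in LKO and 2912 to 3305 CPM in female Fl/Fl libraries, beside 69.5 CPM in the male.

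**Figure D5:**
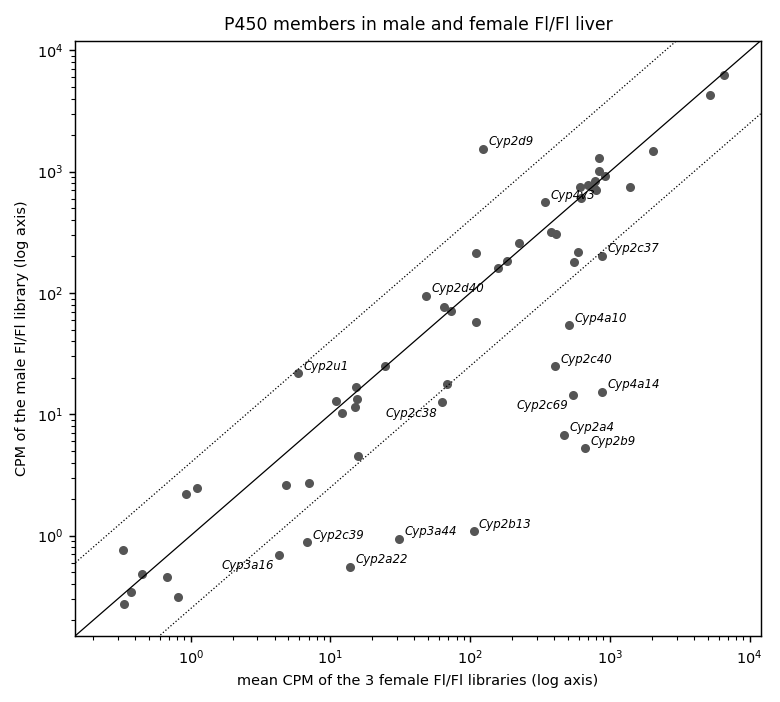
CPM of the male Fl/Fl library against the mean CPM of the 3 female Fl/Fl libraries for the 59 tested members, both axes logarithmic; the solid line marks equal levels and the dotted lines a 4-fold difference. Among these members, Cyp2d9 alone lies above the upper dotted line, and 13 lie below the lower one, with Cyp2b9 (5.23 against 663 CPM) the farthest from it.

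The partners and regulators of the P450 genes were read from the same fit, in lists of genes outside the P450 families. Over all genes tested, 1.02% passed as higher and 0.396% as lower, and 9.22% and 6.86% did so at an unadjusted p of 0.05. Of 16 electron partners and heme synthesis genes, 1 passed as higher in LKO and 0 as lower (3 and 0 at an unadjusted p of 0.05), with a median of 0.09 on the log2 scale. Their summed level was 4247 to 4509 CPM in LKO, 3573 to 3884 CPM in female Fl/Fl and 4508 CPM in the male library, so the female groups did not overlap. Por, the reductase that feeds electrons to microsomal P450 enzymes, rose from 356 ± 33.4 CPM (322, 359 and 388) in female Fl/Fl to 579 ± 87.7 CPM (476, 681, 548 and 613) in LKO livers. The male had 427 CPM. The change was 1.63-fold (log2 0.70 ± 0.13, adjusted p = 0.0306 by edgeR), and it was past the threshold in 9 of 17 alternatives. The call was lost without any 1 of Fl/Fl 5, Fl/Fl 7, LKO 4, LKO 12 and LKO 13, with log2 differences of 0.62 to 0.73 in those fits. Few genes of the whole table passed there as higher: 0.0119% without Fl/Fl 5 and 0.149% without Fl/Fl 7. The share was 0.214% without LKO 4, 0.662% without LKO 12 and 0.262% without LKO 13.

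Of 13 tested xenobiotic and lipid receptors, 2 rose and 0 fell (5 higher and 1 lower at an unadjusted p of 0.05), with a median of 0.16. The receptors summed to 1338 to 1441 CPM in LKO, 1052 to 1226 CPM in female Fl/Fl and 1359 CPM in the male library, and the female groups did not overlap. Nr1i2, the receptor that drives Cyp3a genes, had 73.5, 65.5 and 71.6 CPM in Fl/Fl females, 103 in the male and 121, 128, 98.9 and 116 in LKO livers (1.65-fold, log2 0.72 ± 0.10, adjusted p = 0.0134). Ahr had 85.3, 69.9 and 80.8 CPM, 95.9 in the male and 132, 149, 102 and 116 in LKO livers (1.59-fold, log2 0.67 ± 0.13, adjusted p = 0.0372). All LKO values of both genes exceeded all Fl/Fl females. Nr1i2 was past the threshold in 13 and Ahr in 9 of 17 alternatives, and both were lost without Fl/Fl 5 or without Fl/Fl 7. Ahr was also lost without LKO 3, LKO 4 or LKO 13. In these fits Nr1i2 differed by 0.67 to 0.76 and Ahr by 0.57 to 0.73 on the log2 scale. Of all genes, 0.0119% passed as higher without Fl/Fl 5, 0.149% without Fl/Fl 7 and 0.786% without LKO 3. The share was 0.214% without LKO 4 and 0.262% without LKO 13.

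Of 16 transcription factors that act on P450 promoters, Bcl6 rose and Foxa1 fell (5 higher and 3 lower at an unadjusted p of 0.05), with a list median of 0.00. Bcl6, a repressor of female-type liver genes, had 13.2, 10.8 and 11.2 CPM in Fl/Fl females, 21.7 in the male and 24.2, 22.8, 19.0 and 33.9 in LKO livers (log2 1.09 ± 0.18, adjusted p = 0.0270). Foxa1, a pioneer factor of liver enhancers, had 17.6, 16.5 and 15.3 CPM, 16.1 in the male and 11.4, 10.4, 8.91 and 12.3 in LKO livers (log2 -0.61 ± 0.12, adjusted p = 0.0419). They were past the threshold in 10 and 8 of 17 alternatives, and both were lost without Fl/Fl 5, Fl/Fl 7, LKO 3 or LKO 4, Foxa1 also without LKO 12 or LKO 13. Without Fl/Fl 5, 0.0119% of all genes passed as higher and 0.0119% as lower, and without Fl/Fl 7 0.149% and 0.0715%. Without LKO 3 the shares were 0.786% and 0.316%, and without LKO 4 0.214% and 0.0654%. As lower, 0.179% passed without LKO 12 and 0.0832% without LKO 13. The male value of Bcl6 lay within the LKO range.

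In the clock and PAR bZIP list, 0 of 16 genes passed with edgeR and 1 was higher at an unadjusted p of 0.05. The smallest p values were those of Ciart, with 3.52, 3.33 and 7.84 CPM in Fl/Fl females and 8.30, 13.9, 18.4 and 20.2 in LKO livers (log2 1.63 ± 0.44, adjusted p = 0.148), and Hlf (log2 0.29 ± 0.15, adjusted p = 0.366). The male control had 26.7 CPM of Ciart, above every LKO value. Ciart passed as higher with DESeq2 (adjusted p = 0.0153, 4.02% of all genes) and without Fl/Fl 9 (0.0398 by edgeR, 2.84%). Many P450 genes are expressed in a gradient between the portal and central veins, so markers of both ends were read as well. Of 14 pericentral genes outside the P450 families 0 passed, and 1 was higher and 3 lower at an unadjusted p of 0.05, with Axin2 at -1.32 ± 0.35 (adjusted p = 0.115) and Rnf43 at -0.78 ± 0.21 (adjusted p = 0.124) by edgeR. With DESeq2, Axin2 (0.00224) and Rnf43 (0.00889) passed as lower (2.22% of all genes). Axin2 also passed without Fl/Fl 9 (0.00227 by edgeR, 1.5%). Axin2 had 9.06, 8.40 and 3.09 CPM in Fl/Fl 5, 7 and 9, 2.50 in the male and 2.07 to 3.27 in LKO livers. Both Fl/Fl 9 and the male thus lay within the LKO range. Of 14 periportal genes 1 rose and 0 fell (7 higher and 1 lower at an unadjusted p of 0.05), with a list median of 0.28 beside 0.00 over all genes: Sds, serine dehydratase, had 170, 170 and 173 CPM in Fl/Fl females, 307 in the male and 306, 378, 330 and 279 in LKO livers (1.89-fold, log2 0.92 ± 0.11, adjusted p = 0.00881). The call of Sds was lost without Fl/Fl 5 (adjusted p = 0.0654 by edgeR), a fit in which 0.0119% of all genes passed as higher. The male value of Sds lay within the LKO range. None of these 6 calls (Por, Nr1i2, Ahr, Bcl6, Foxa1 and Sds) was kept in the edgeR fit without a sex term, where 1 of all 16420 genes passed. In the authors' deposited table, which counts the male as an ordinary control, Foxa1 (adjusted p = 0.00443), Por (0.00926) and Ahr (0.0350) were past 0.05. There Nr1i2 (0.0799), Bcl6 (0.0982) and Sds (0.127) were not. Of all genes in that table, 0.258% were past it as higher and 0.151% as lower. With Fl/Fl 9 as the only female control library they were lost as well, with log2 differences of 0.57 for Por, 0.69 for Nr1i2, 0.62 for Ahr, 1.15 for Bcl6, -0.52 for Foxa1 and 0.90 for Sds.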

How the data were processed

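The members, lists, tests and alternatives were chosen with earlier results of these data known. The authors deposited 1 table of 27110 genes on mm10 with read counts per library, a normalised signal (the deposited counts divided by a size factor), FPKM, and their own log2 fold change, p-value and adjusted p for LKO against Fl/Fl. The library kit was NEBNext Ultra RNA, per the labels' protocols. The tools named in the submitters' processing notes, with no role or version, are edgeR, DESeq2, DESeq, featureCounts, HTSeq, STAR and fastp. Annotation release, strand setting and the handling of reads that match several genes are not given in the sources used here. How reads shared by overlapping or near-identical genes were assigned is therefore uncertain.

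Counts were fitted in R 4.3.3 with edgeR 4.0.16 (filterByExpr, TMM, robust quasi-likelihood F test) on all 8 libraries, with genotype and sex as terms. The sex term absorbs the single male, so the contrast is 4 LKO against 3 female Fl/Fl libraries. The test is two-sided, adjusted by Benjamini-Hochberg over 16420 genes, and the threshold is 0.05. The ± of a log2 difference is its standard error, and that of a level is the SD. Alternatives were no sex term, the 7 females alone, other scalings and filters, DESeq2 1.42.0, limma 3.58.1 (voom, and trend on log2(FPKM + 1)), single replicates left out, Fl/Fl 5 and 7 left out together, and an adjusted p of 0.01. The code was tested on simulated data.

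Named by rule were members past the threshold, the 15 smallest p, the 10 highest mean FPKM, the highest of each subfamily, the 5 highest and 5 lowest ratios of male to female Fl/Fl among members averaging 1 CPM or more, and the called genes of each pathway list (else its 2 smallest p). Cyp2a22, Cyp3a16, Cyp3a44 and Dbp were named after their values were seen.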

Additional observations from a re-analysis of the deposited data

Results flagged for a closer look

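In the 4 libraries of each genotype, 1 value can stand apart from the other 3 by more than Dixon's critical value allows, which chance gives in about 1 in 20 groups. The 88 groups examined are those of the named members, some of which were chosen by their male ratio or after their values were seen, so the count of such values cannot be read against that rate. In all, 12 groups held one, and in 5 it was the male library among the Fl/Fl livers. In the male, Cyp2d9 had 1549 CPM (105 to 149 in the females), Cyp2d40 94.4 (47.2 to 49.4), Cyp2u1 21.8 (5.60 to 6.26), Cyp1a1 2.45 (1.06 to 1.18) and Cyp2c40 24.9 (389 to 431).

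Fl/Fl 9 stood apart from the other Fl/Fl libraries in the 3 members that were named because of this spread, so it is a description only: Cyp2a22 had 39.9 CPM (0.556 to 0.808 in the others), Cyp3a44 72.8 (0.941 to 10.8) and Cyp3a16 11.7 (0.494 to 0.718).

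Among LKO livers, LKO 3 was low in Cyp2a22 (41.9 CPM against 77.1 to 80.4) and in Cyp2a5 (510 against 885 to 900). LKO 13 was high in Cyp2c54 (593 against 478 to 495) and LKO 4 in Cyp1b1 (1.22 against 0.473 to 0.514).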

How the results depend on the processing

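No paired analysis was possible because the replicate numbers differ between the genotypes. The count of P450 members past the threshold was 0 in both directions in every alternative run but 3. DESeq2 gave 1 higher and 2 lower, and leaving out single replicates gave 0 to 3 higher and 0 to 4 lower, with 3 and 4 without Fl/Fl 9 and 1 and 0 without LKO 4.

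Of the pathway genes, 5 passed as higher and 1 as lower. These counts were 0 and 0 without a sex term, 9 and 2 with no filter, 14 and 7 with DESeq2, 2 and 0 with limma trend, 0 higher without Fl/Fl 5 and 7, 1 and 0 at an adjusted p of 0.01, and 0 to 13 and 0 to 4 over single replicates left out. The cause was not tested. Of all genes, 1 passed as higher and 0 as lower of 16420 without a sex term, and 2 and 2 of 16777 without Fl/Fl 5.

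Log2 ratios of subfamily sums moved by more than 1 SD with all 4 Fl/Fl libraries as controls for Cyp2b (0.62), Cyp2c (0.084), Cyp2d (-0.20) and Cyp4a (0.51), where the male library enters. They also moved without Fl/Fl 5 and 7, where Fl/Fl 9 is the only female control, for Cyp1a (0.49), Cyp2b (0.65), Cyp2c (0.14), Cyp2d (0.12), Cyp2e (0.13), Cyp3a (0.24) and Cyp4f (0.32).

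Of the fold changes of single members, 692 alternative values kept sign and call, 11 gained the call and 45 changed sign, none of them called. Without a sex term the changed values were Cyp2c40 0.19, Cyp2c54 0.043, Cyp2c37 0.26, Cyp2d10 -0.00061, Cyp2f2 -0.18, Cyp2b9 0.29, Cyp4v3 -0.17, Cyp2d40 -0.29. Without Fl/Fl 5 and 7 they were Cyp2c54 0.13, Cyp2c67 0.19, Cyp3a25 0.18, Cyp3a59 0.22, Cyp2c37 0.18, Cyp2c50 0.21, Cyp2c70 0.022, Cyp2e1 0.12, Cyp3a11 0.24, Cyp1b1 0.15, Cyp2b9 0.42, Cyp2g1 0.20, Cyp2j5 0.31, Cyp2d40 -0.026, Cyp2a4 -0.47, Cyp2c69 -0.35, Cyp3a16 -0.69, Cyp3a44 -0.91. Members whose sign changed when 1 replicate was left out had these ranges: Cyp1a2 -0.025 to 0.23, Cyp2c29 -0.13 to 0.18, Cyp2c37 -0.15 to 0.10, Cyp2d10 -0.022 to 0.10, Cyp2f2 -0.10 to 0.075, Cyp2b9 -0.34 to 0.067, Cyp2g1 -0.54 to 0.060, Cyp2j5 -0.20 to 0.065, Cyp4b1 -0.054 to 0.18, Cyp4v3 -0.026 to 0.10, Cyp2d40 -0.0014 to 0.039, Cyp2a4 -0.013 to 0.78, Cyp2c69 -0.12 to 0.32, Cyp3a44 -0.10 to 1.98. Depth left 7 members untested. The lowest mean of a tested member was 0.283 CPM (Cyp4f39), where 3 reads were worth at most 0.0428 CPM.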

Other observations

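The symbol rule left out 5 protein-coding P450 genes of these families whose names end in a letter or carry a longer subfamily name, and the 4 that belong to a duplicated pair were looked at after their values were seen. Cyp3a41a had 8.44, 6.44 and 44.9 CPM in Fl/Fl females 5, 7 and 9, 0.841 in the male and 53.0, 69.9, 84.8 and 42.5 in LKO livers (log2 1.65 ± 0.80, adjusted p = 0.389 by edgeR's quasi-likelihood test). Fl/Fl 9 again lay with the LKO values and Fl/Fl 5 and 7 below them. Its copy Cyp3a41b had 0.334, 0.308 and 1.54 CPM in the Fl/Fl females and 1.94, 2.44, 2.35 and 1.35 in LKO livers (log2 1.47 ± 0.56, adjusted p = 0.244).

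Cyp4a12a and Cyp4a12b, fatty acid hydroxylases known from male liver, had 400 and 98.7 CPM in the male library. In the 7 female libraries Cyp4a12a had 0.207 to 5.73 CPM, with the highest value in LKO 13, and Cyp4a12b 0.0276 to 0.460 CPM. The Cyp4a10 and Cyp4a14 levels of the same subfamily ran the other way, as did the summed level of the 4 Cyp4a members, 99.1 CPM in the male and 1101 to 1944 CPM in the females. That sum does not include Cyp4a12a or Cyp4a12b. How reads were divided between the near-identical copies of each pair is uncertain.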
